A study of Mus musculus with 8 samples.

Results

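The matrix metalloproteinases (MMP), the ADAMTS proteases and their tissue inhibitors (TIMP) were examined in whole corneas that lacked or kept the glucocorticoid receptor in the epithelium. Genes were taken by symbol alone: every table entry named Mmp followed by a digit, Timp1 to Timp4, or Adamts followed by a number. The table of 24918 entries held 46 such genes, of which Mmp1a and Mmp21 were listed at 0 in every library, so that 44 remained. A mean log2 normalized value of at least 5 over the libraries was required for testing, and 24 of the 44 met it: 10 MMP, 11 ADAMTS and 3 TIMP genes.

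RNA came from male mice aged 3 months on a C57BL/6J/FVB background. The corneaGRKO mice were homozygous for a floxed glucocorticoid receptor gene and heterozygous for Cre under the P0 promoter of Pax6 (GRloxP/loxP-PAX6Cre/+), which removes the receptor from the corneal epithelium. Their GRflox littermates (GRloxP/loxP-PAX6+/+) carried the same floxed alleles without Cre. The presence of Cre and the loss of the receptor therefore cannot be told apart. There were 4 libraries in each group (replicates 1, 3, 4 and 5), all of them pools of 4 to 6 whole corneas, with stroma and endothelium included. In bulk RNA of this kind, fewer cells of a type and less RNA per cell cannot be told apart.

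The corneal stroma is a dense, transparent collagen matrix, and its turnover is governed by secreted and membrane-bound zinc proteases. MMPs are made as inactive proenzymes and cleave collagens, proteoglycans, fibronectin and each other, ADAMTS enzymes trim procollagens and large proteoglycans such as versican, and TIMPs bind and block the active enzymes. Several MMP genes, among them those of the stromelysins and collagenases, carry binding sites for the AP-1 transcription factor close to their starts, and the liganded glucocorticoid receptor is known from human and rat cells to restrain AP-1 at such genes.

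Nr3c1, which encodes the glucocorticoid receptor, was lower in every corneaGRKO library (10.61 to 10.83) than in any GRflox library (11.07 to 11.34), with a log2 difference of -0.47 (SE 0.064, limma adjusted p = 0.00767). The defining markers of cornea were abundant in all 8 libraries, with Krt12 of the epithelium between 19.57 and 20.20, Kera of the stroma between 14.29 and 14.77 and Slc4a11 of the endothelium between 12.91 and 13.49. Per the labels, over 40000000 reads were aligned in a sample, but the depth of each library is unknown because the values are normalized.

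Mmp3 lies in a run of 10 MMP genes on chromosome 9, and its upstream sequence is shown because it was the single gene of these families that passed the test described below. The 250 bases before its start (RefSeq, GRCm38.p6, chr9:7445572-7445821, plus strand) hold 1 match to the AP-1 motif TGANTCA, in capitals, 46 to 40 bases before the start.
Mmp3: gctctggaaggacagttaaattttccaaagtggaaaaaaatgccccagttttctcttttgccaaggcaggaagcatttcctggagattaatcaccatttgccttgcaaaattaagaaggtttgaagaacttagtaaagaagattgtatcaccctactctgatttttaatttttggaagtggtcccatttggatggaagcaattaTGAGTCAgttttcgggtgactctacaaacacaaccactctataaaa

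The motif was searched on both strands of the same 250 bases for the 32 members found in the RefSeq promoter table, and 6.75% of the 32851 promoters of that table hold it. A match was found for 7 of the 32 members, and all 7 belong to the chromosome 9 run, where all 10 genes had a promoter entry. None of the other 22 members had one. The 6 other genes with a match are shown with 16 bases on either side, since the sequences of neighbours with very different values can then be set beside that of Mmp3. A match describes the letters in this window and does not show that a factor binds there.
Mmp13: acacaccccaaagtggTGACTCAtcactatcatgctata
Mmp1b: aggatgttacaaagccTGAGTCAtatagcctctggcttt
Mmp1a: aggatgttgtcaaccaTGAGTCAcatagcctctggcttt
Mmp10: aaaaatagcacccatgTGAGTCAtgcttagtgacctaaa
Mmp20: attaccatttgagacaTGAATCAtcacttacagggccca
Mmp7: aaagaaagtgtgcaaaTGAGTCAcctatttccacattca

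The letters AGAACA, a piece of the glucocorticoid response element searched on both strands, is held by 16.1% of all promoters and was found for 3 of the 32 members, Mmp10, Mmp11 and Mmp23. The TATA box letters TATAAA on the sense strand are held by 7.59% of all promoters and by 9 of the 32 members, Mmp3 among them. In Mmp3 they lie only 7 to 2 bases before the listed start. A narrow form of the NF-kB motif, searched on both strands, is held by 0.356% of all promoters and by 0 of the 32 members. Looser forms of the NF-kB motif were not searched, so whether these promoters hold them was not tested.

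Mmp3, which encodes stromelysin-1, a secreted protease of proteoglycans and fibronectin that also activates other MMPs, rose in corneaGRKO corneas, and no other MMP, ADAMTS or TIMP gene passed the threshold. The log2 values of Mmp3 were 11.58, 11.30, 11.20 and 11.14 in GRflox replicates 1, 3, 4 and 5. In corneaGRKO replicates 1, 3, 4 and 5 they were 11.93, 12.37, 12.35 and 11.88. Every corneaGRKO library thus lay above every GRflox library, with replicates 3 and 4 highest, and GRflox replicate 1 was the control nearest to the corneaGRKO group. The mean went from 11.30 ± 0.194 (SD, n = 4) to 12.13 ± 0.265 (SD, n = 4), a log2 difference of 0.83 (SE 0.129, 95% interval 0.54 to 1.11), or 1.77-fold on the deposited scale. Limma, fitted over all 13269 entries with a mean of at least 5 and adjusted by Benjamini-Hochberg, gave an adjusted p of 0.0121. Among the 176 entries that were called higher, Mmp3 ranked 17th by the size of its increase.

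**Figure D1:**
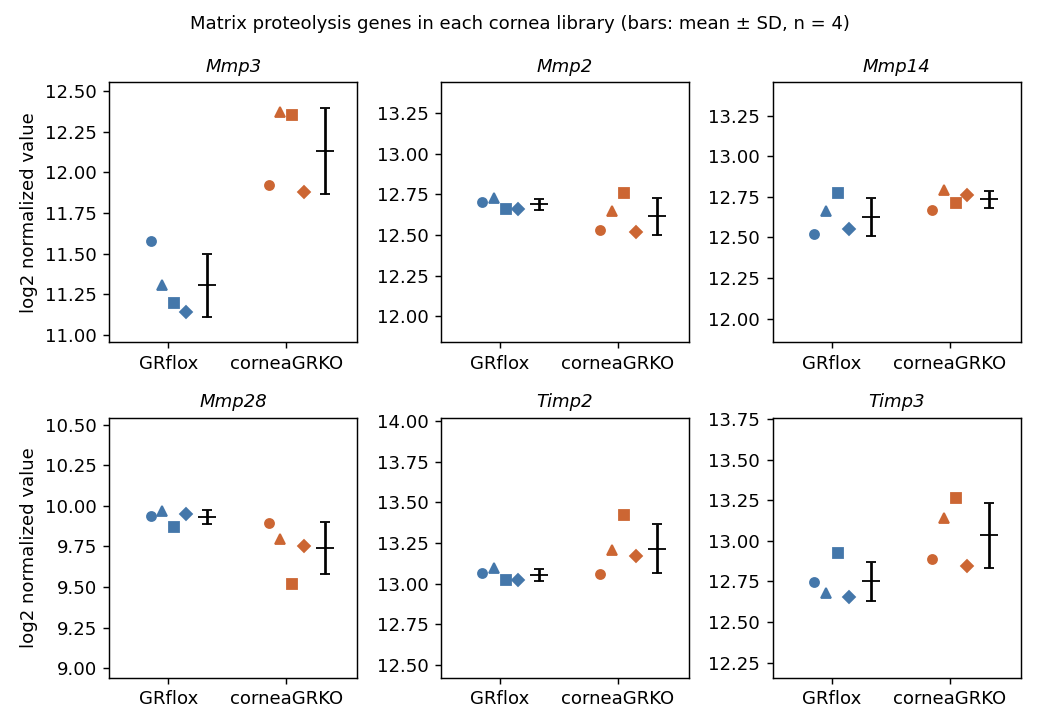
Log2 normalized value (vertical axis, 1.6 log2 units in every panel) of 6 genes in the 4 GRflox and 4 corneaGRKO libraries, with marker shapes for replicates 1 (circle), 3 (triangle), 4 (square) and 5 (diamond) and black bars for the mean ± SD. The 4 corneaGRKO values of Mmp3, from 11.88 to 12.37, all lie above the GRflox values, while the groups overlap for Mmp2, Mmp14, Mmp28, Timp2 and Timp3.

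The call of Mmp3 was lost without GRflox replicate 5, with a log2 difference of 0.77 and a limma adjusted p of 0.0544. Genes listed as markers of neighbouring tissue also differed between corneaGRKO libraries. More of such tissue and changed expression within the cornea cannot be told apart here. Of all tested entries, 1.33% were called higher and 0.520% lower. The summed log2 level of 6 limbal and scleral rim genes (all 6 tested, all 6 positive in difference and 0 called, none at 0) ran from 14.11 to 14.34 in GRflox and from 14.44 to 15.18 in corneaGRKO, and its mean deviation from GRflox was highest in replicates 3 (0.64) and 4 (0.91) against 0.22 and 0.21 in replicates 1 and 5. The summed level of the 4 tested photoreceptor markers of 8 ran from 7.74 to 7.84 in GRflox and from 7.93 to 10.15 in corneaGRKO, highest in replicate 4. Of 7 conjunctiva and goblet cell markers, 6 were tested, all 6 differences were positive (median 0.63) and 3 were called higher, the keratin genes Krt8, Krt13 and Krt19. Their summed log2 level ran from 15.29 to 15.65 in GRflox and from 15.84 to 16.58 in corneaGRKO, and the mean deviation from GRflox was 0.40, 0.52, 1.08 and 0.43 in corneaGRKO replicates 1, 3, 4 and 5. The goblet cell mucin gene Muc5ac was below the filter, with values of 1.92 to 1.97 in GRflox and 1.94 to 1.99 in corneaGRKO. Agr2, of the same list, stood at 0.02 (limma adjusted p = 0.784). The 4 tested pigment cell markers of 5 were all positive in difference, with Tyrp1 called higher, and their summed level ran from 10.56 to 10.68 in GRflox and from 10.78 to 11.13 in corneaGRKO. Without corneaGRKO replicate 4 the Mmp3 difference was 0.75 (limma adjusted p = 0.0185), and without corneaGRKO replicates 1 and 4 together it was 0.82 (0.0236). Without corneaGRKO replicate 3 the Mmp3 difference was 0.75 (limma adjusted p = 0.0445). Replicates 3 and 4 of corneaGRKO, the highest in rim markers, were not left out together. The 9 keratocyte markers, all tested, had mean deviations from -0.02 to 0.08 in the corneaGRKO libraries, with Kera and Col5a1 called lower and 0 called higher. Of 7 vessel markers, 6 were tested, with 5 positive in difference and 0 called. Their mean deviations were 0.04, 0.30, 0.26 and 0.08 in corneaGRKO replicates 1, 3, 4 and 5. In the same order they were 0.16, 0.29, 0.47 and 0.25 for the 10 tested macrophage markers. For the 2 tested muscle markers of 6 they were 0.15, 0.30, 0.58 and 0.21. Lens markers (5 tested, 1 positive in difference, 0 called) had mean deviations of 0.29, -0.63, -0.77 and 0.71 in corneaGRKO replicates 1, 3, 4 and 5. In GRflox they were -0.41, 0.48, 0.35 and -0.42. For 8 epithelium markers (1 positive, 0 called) they were 0.07, -0.05, -0.12 and -0.04 in corneaGRKO. For 4 endothelium markers (1 positive, 0 called) they were -0.08, -0.11, -0.11 and -0.10. The part of the lens, epithelium, endothelium, rim stroma, conjunctiva, pigment cells, photoreceptors, vessels, macrophages and muscle in the Mmp3 result was not tested.

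The neighbours of Mmp3 in the chromosome 9 run had far lower values, and 0 of the 8 that were not at 0 in every library reached the mean of 5. The genes stand in the order Mmp13, Mmp12, Mmp1b, Mmp3, Mmp1a, Mmp10, Mmp8, Mmp27, Mmp20 and Mmp7. Mmp10, which encodes stromelysin-2, a close relative of stromelysin-1, had a mean log2 value of 3.31 ± 0.0365 (SD, n = 4) in GRflox and 3.32 ± 0.0323 (SD, n = 4) in corneaGRKO. The values of Mmp10 ranged from 3.27 to 3.36 over the 8 libraries, and the groups overlapped. Mmp1a, one of the mouse interstitial collagenases and the gene next to Mmp3, was listed at 0 in every library, and its relative Mmp1b had a mean of -2.35 with a range of 0.0055 over the 8 libraries. The others had means of 4.31 (Mmp13), 4.80 (Mmp12), 2.68 (Mmp27), 1.14 (Mmp20), -0.33 (Mmp7) and -0.91 (Mmp8).

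**Figure D2:**
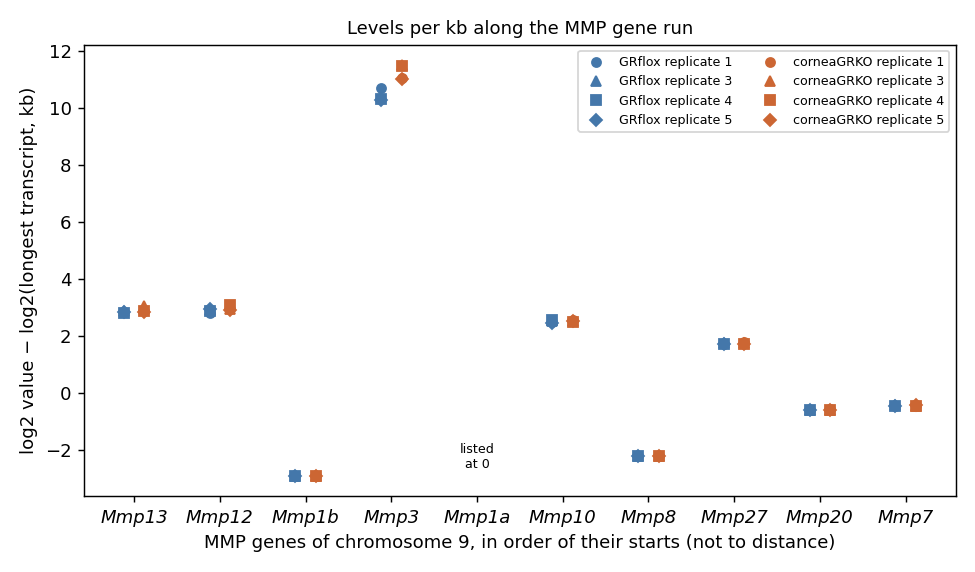
Level per kb (log2 normalized value minus log2 of the longest transcript in kb, vertical axis) of the 10 MMP genes of chromosome 9 in their order, with 4 GRflox and 4 corneaGRKO libraries as points. Mmp3 lies between 10.29 and 11.52, far above its measured neighbours, and Mmp1a is listed at 0.

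Over the 24 tested genes, 1 was called higher and 0 lower (4.17%), against 1.85% of all 13269 tested entries called in either direction, 1.33% of them higher and 0.520% lower. The median log2 difference was 0.07 over the 24 genes and -0.01 over all tested entries, and 18 of the 24 differences were positive against 45.3% of all entries. The groups did not overlap for 5 of the 24 genes (20.8%), all higher in corneaGRKO, against 10.5% of all entries (5.89% higher and 4.61% lower). These 5 were Mmp3, Mmp19, Mmp23, Adamts15 and Adamts16. Counting at an unadjusted limma p under 0.05 gives 8 of 24 genes, against 16.5% of all entries.

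**Figure D3:**
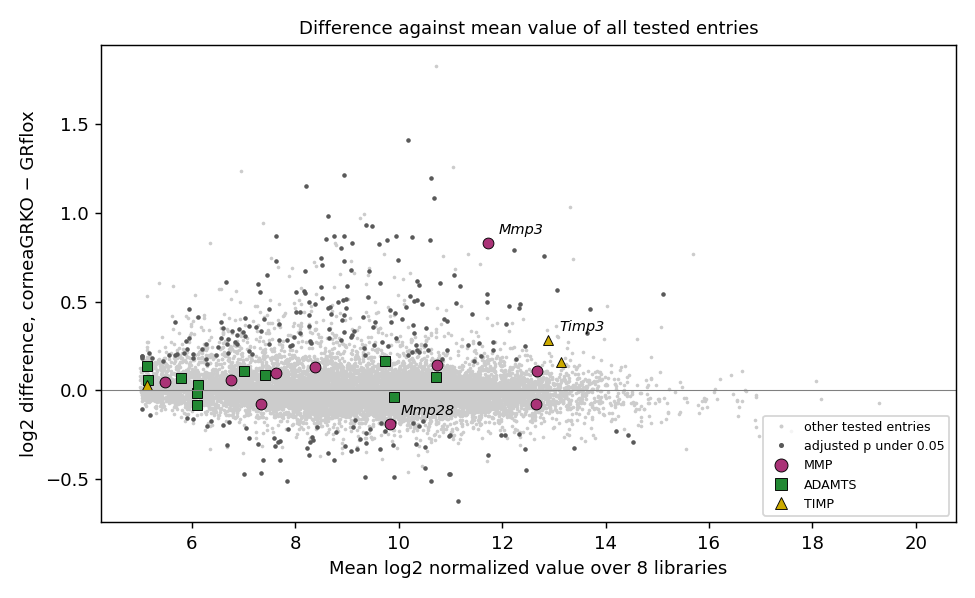
Log2 difference between corneaGRKO and GRflox (vertical axis) against the mean log2 value over 8 libraries (horizontal axis) for 13269 entries, with entries at an adjusted p under 0.05 in dark grey and the 24 MMP, ADAMTS and TIMP genes as large symbols. Mmp3, at 0.83, stands apart from the other 23, whose differences lie between -0.19 and 0.28.

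The library with the most extreme values was corneaGRKO replicate 4, in which 12 of the 24 genes had their highest value of the 8 libraries. Replicate 3 of corneaGRKO held the highest value of 5 genes, while GRflox replicate 5 held the lowest value of 9 genes and GRflox replicate 3 that of 6. The median deviation of the 24 genes from their GRflox means was 0.00072, 0.10, 0.13 and 0.07 in corneaGRKO replicates 1, 3, 4 and 5. Replicate 1 of corneaGRKO therefore sat at the control level for the typical gene of these families, though not for Mmp3.

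**Figure D4:**
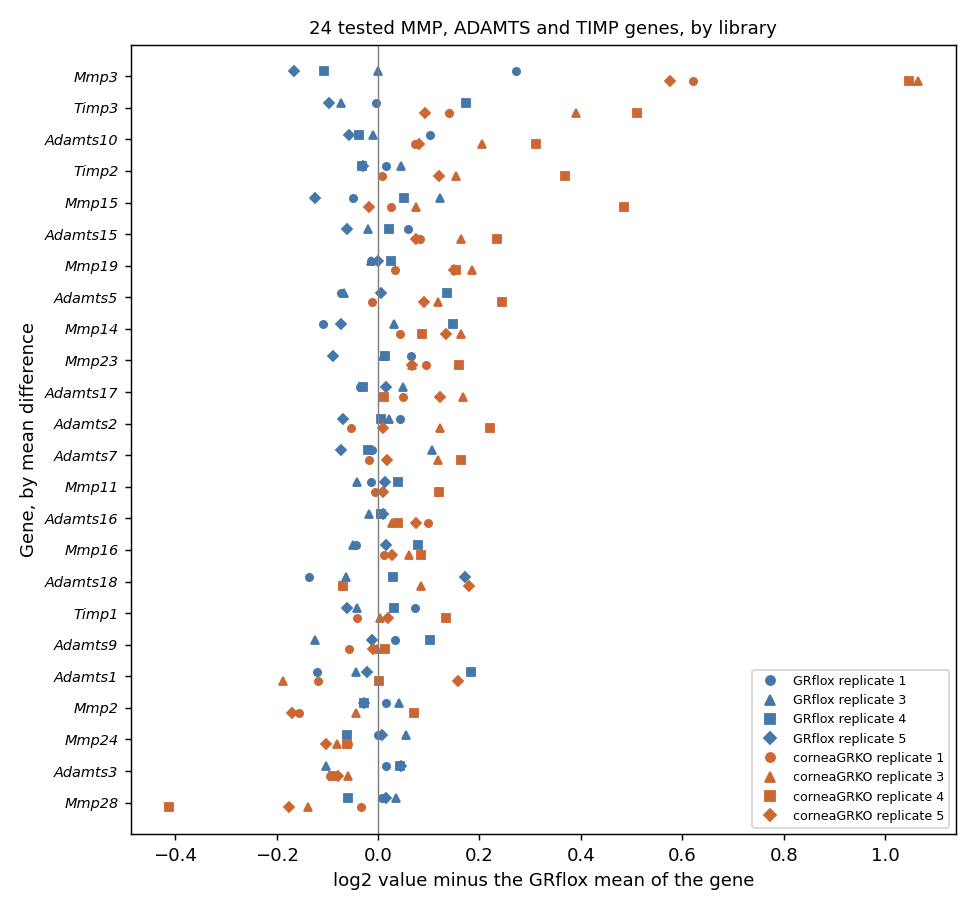
Log2 value minus the GRflox mean of each gene (horizontal axis) for the 24 tested genes (vertical axis, ordered by mean difference), with 1 point per library, blue for GRflox and orange for corneaGRKO, and marker shapes for the replicate numbers. The orange squares of corneaGRKO replicate 4 are the rightmost points for 12 genes and the leftmost for Mmp28.

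Levels can be compared between genes only per length, and for this the log2 of the longest protein-coding transcript in kb (GENCODE M21) was subtracted. In GRflox corneas, 5 genes stood above the rest: Timp2 (11.16 ± 0.0373, SD), Mmp2 (11.07 ± 0.0338), Mmp14 (10.93 ± 0.115), Timp3 (10.51 ± 0.123) and Mmp3 (10.46 ± 0.194), each per kb with n = 4. The next was Mmp15 at 8.30 ± 0.109. Neighbours in this order whose GRflox libraries overlapped were Mmp2 with Mmp14, Timp3 with Mmp3, Mmp15 with Mmp28, Adamts10 with Adamts1, Timp1 with Mmp24, Adamts18 with Adamts5, and Mmp16 with Adamts9. In corneaGRKO corneas Mmp3 had a level per kb of 11.28 ± 0.265 (n = 4) and was 2nd, after Timp2 at 11.32 ± 0.151, where it had been 5th in GRflox. The range of its 4 corneaGRKO libraries, 11.03 to 11.52 per kb, overlapped those of Timp2 (11.17 to 11.53), Mmp14 (10.98 to 11.10) and Mmp2 (10.90 to 11.14), so their order in that group lies within the spread.

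**Figure D5:**
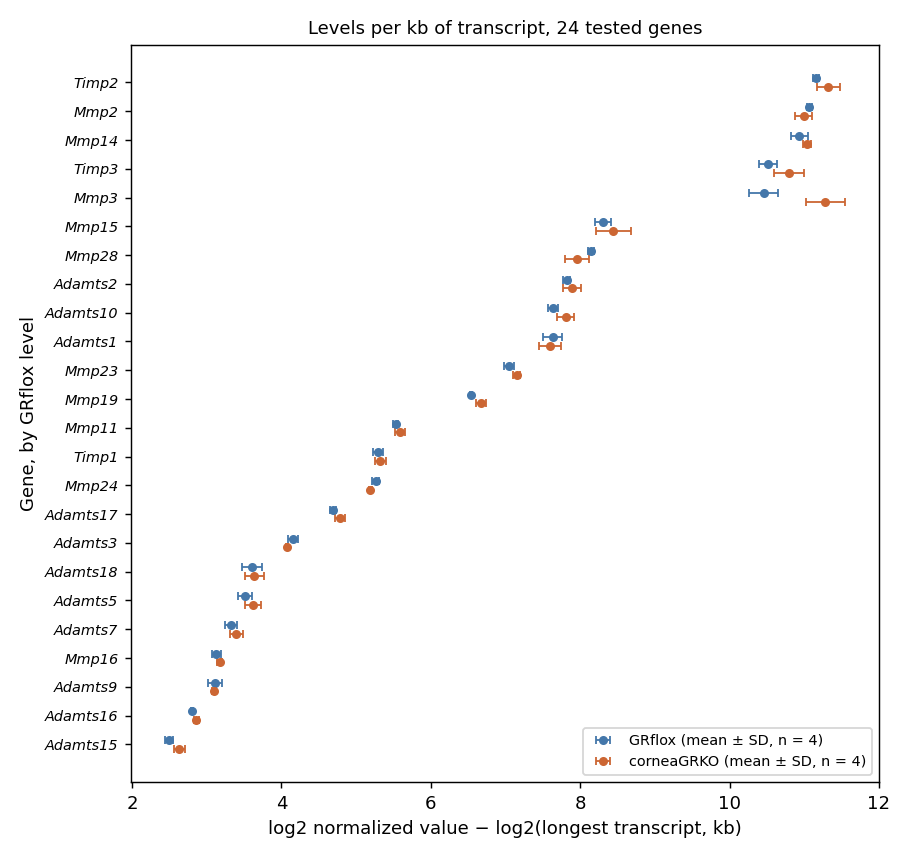
Level per kb (log2 normalized value minus log2 of the longest transcript in kb, horizontal axis) of the 24 tested genes, ordered by GRflox level, as mean ± SD of 4 GRflox (blue) and 4 corneaGRKO (orange) libraries. Timp2, Mmp2, Mmp14, Timp3 and Mmp3 lie above 10 and the others below 9.

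The gelatinase Mmp2 and the membrane protease that activates it, Mmp14, were abundant and did not pass the test. Mmp2, which cleaves denatured collagen and basement membrane collagen, had log2 values of 12.71, 12.73, 12.66 and 12.66 in GRflox and of 12.53, 12.65, 12.76 and 12.52 in corneaGRKO replicates 1, 3, 4 and 5. The corneaGRKO libraries lay on both sides of the GRflox ones, with replicate 4 highest. The log2 difference was -0.07 (SE 0.0538, 95% interval -0.19 to 0.04, limma adjusted p = 0.503), and it ran from -0.12 without corneaGRKO replicate 4 to -0.04 without corneaGRKO replicate 5, with -0.05 without corneaGRKO replicate 1. Mmp14, which encodes MT1-MMP, a collagenase anchored in the cell membrane, had values of 12.52, 12.66, 12.78 and 12.56 in GRflox and 12.67, 12.79, 12.71 and 12.76 in corneaGRKO. The Mmp14 difference was 0.11 (SE 0.0569, 95% interval -0.02 to 0.23, limma adjusted p = 0.376). It was 0.07 without GRflox replicate 1 and 0.16 without GRflox replicate 4. For both genes the intervals leave out a change as large as that of Mmp3.

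The other membrane-type enzymes did not pass either. Mmp15 had values of 10.61, 10.79, 10.71 and 10.54 in GRflox and 10.69, 10.74, 11.15 and 10.65 in corneaGRKO, so that replicate 4 stood apart. The Mmp15 difference of 0.14 (SE 0.102, limma adjusted p = 0.502) was 0.03 without that library and 0.20 without corneaGRKO replicate 5. Mmp16 (0.05) and Mmp24 (-0.08) had limma adjusted p-values of 0.523 and 0.337, and the difference of Mmp16 was 0.03 without GRflox replicate 3 and 0.07 without GRflox replicate 4. Mmp17 and Mmp25, whose products are tethered by a lipid anchor, had means below the filter.

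Mmp28 had the largest negative difference of the 24 genes. This gene encodes epilysin, a secreted MMP of epithelia, and its log2 values were 9.94, 9.97, 9.87 and 9.95 in GRflox and 9.90, 9.79, 9.52 and 9.76 in corneaGRKO replicates 1, 3, 4 and 5. The groups overlapped through corneaGRKO replicate 1, and replicate 4 was lowest. The difference was -0.19 (SE 0.0703, 95% interval -0.35 to -0.03, limma adjusted p = 0.203), and it was -0.12 without corneaGRKO replicate 4.

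Mmp19, a secreted enzyme that degrades basement membrane components, had values of 8.29, 8.29, 8.33 and 8.31 in GRflox and 8.34, 8.49, 8.46 and 8.46 in corneaGRKO. The groups did not overlap, although replicate 1 of corneaGRKO lay just above the highest control. Its difference of 0.13 (SE 0.0425, limma adjusted p = 0.155) missed the threshold, and it passed without that library (0.16, limma adjusted p = 0.0461). Mmp23 had a difference of 0.10 (limma adjusted p = 0.304) with values of 7.48 to 7.64 in GRflox and 7.64 to 7.73 in corneaGRKO, so that its groups nearly touched. Mmp11, which encodes stromelysin-3, stood at 0.06 (limma adjusted p = 0.483).

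The tissue inhibitors did not pass the test. Timp3, which is bound to the matrix and inhibits both MMP and ADAMTS enzymes, had log2 values of 12.75, 12.68, 12.92 and 12.65 in GRflox and 12.89, 13.14, 13.26 and 12.84 in corneaGRKO replicates 1, 3, 4 and 5. Only corneaGRKO replicates 3 and 4 lay above every control. The difference was 0.28 (SE 0.095, 95% interval 0.07 to 0.49, limma adjusted p = 0.166), the second largest in size of the 24 genes, and 0.21 without corneaGRKO replicate 4. Timp2, which inhibits MMPs and also helps MT1-MMP to activate the proenzyme of Mmp2, had values of 13.07, 13.10, 13.02 and 13.02 in GRflox and 13.06, 13.21, 13.42 and 13.17 in corneaGRKO, a difference of 0.16 (SE 0.0669, limma adjusted p = 0.260). That of Timp2 was 0.09 without corneaGRKO replicate 4.

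Timp1, a secreted inhibitor often induced in injured tissue, had values from 5.05 to 5.19 in GRflox and from 5.07 to 5.25 in corneaGRKO, a difference of 0.03 (SE 0.0429, limma adjusted p = 0.755) that turned to -0.0090 with quantile normalization and to -0.0057 without corneaGRKO replicate 4. Timp4 had values between -0.51 and -0.49 in all 8 libraries, below the filter, and was not tested. The difference between Mmp3 and Timp3 on the deposited log2 scale, given as a description, was -1.17, -1.37, -1.73 and -1.51 in GRflox replicates 1, 3, 4 and 5. In corneaGRKO it was -0.97, -0.77, -0.91 and -0.96, so every corneaGRKO library lay above every control. The same difference against Timp2 ran from -1.88 to -1.49 in GRflox and from -1.29 to -0.84 in corneaGRKO. These differences are not corrected for transcript length, so their signs do not order the genes. Per kb, the corneaGRKO libraries of Mmp3 (11.03 to 11.52) lay above those of Timp3 (10.60 to 11.02). In GRflox the per-kb ranges of Mmp3 (10.29 to 10.73) and Timp3 (10.41 to 10.68) overlapped, and Mmp3 lay below Timp2 (11.13 to 11.21).

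Among the ADAMTS genes, 0 of 11 tested passed, where 1.85% of all tested entries were called in either direction. The median difference of the 11 genes was 0.07. The procollagen N-proteinases, which trim fibrillar procollagens, are Adamts2, Adamts3 and Adamts14. Adamts2 had a difference of 0.07 (SE 0.058, limma adjusted p = 0.536), with values of 10.61 to 10.72 in GRflox and 10.63 to 10.90 in corneaGRKO. Leaving out corneaGRKO replicate 4 gave 0.03 for Adamts2, and leaving out replicate 1 of that group gave 0.12. Adamts3 stood at -0.08 (SE 0.038, limma adjusted p = 0.326), and Adamts14 was below the filter with a mean of 3.22.

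The proteoglycan-cleaving enzymes showed small differences. Adamts15, a versican-cleaving protease, had a mean of 5.06 ± 0.0515 (SD, n = 4) in GRflox, with a highest library of 5.12, and values of 5.15, 5.23, 5.30 and 5.14 in corneaGRKO, which did not overlap. Its difference was 0.14 (SE 0.0413, 95% interval 0.05 to 0.23, limma adjusted p = 0.125), the smallest adjusted p of the families after Mmp3. Adamts5, the main aggrecanase of mouse cartilage, stood at 0.11 (limma adjusted p = 0.409), at 0.07 without corneaGRKO replicate 4 and at 0.16 without GRflox replicate 4. Adamts1, a protease of versican that also restrains vessel growth, stood at -0.04 (limma adjusted p = 0.848) and Adamts9 at -0.01 (0.902), and the signs of these last differences changed in some of the alternatives given in the closing part. Adamts4, Adamts8 and Adamts20 were below the filter, as were Adamts6, Adamts12, Adamts13 and Adamts19.

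Adamts10, which acts on the fibrillin microfibrils of the eye, had values of 9.76, 9.64, 9.62 and 9.60 in GRflox and 9.73, 9.86, 9.96 and 9.73 in corneaGRKO. The groups overlapped through GRflox replicate 1, and the difference was 0.17 (SE 0.06, limma adjusted p = 0.192). Its relative Adamts17, linked in people to short stature with eye anomalies, stood at 0.09 (limma adjusted p = 0.356). Adamts7, Adamts16 and Adamts18 had differences of 0.07, 0.06 and 0.03, with limma adjusted p-values of 0.501, 0.276 and 0.859, and that of Adamts18 was -0.0024 with quantile normalization. Leaving out corneaGRKO replicate 4 gave 0.04 for Adamts7, while leaving out a control gave 0.05 (replicate 5) or 0.11 (replicate 3).

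The remaining 20 genes had means below 5, between -2.35 and 4.80, where differences on the deposited scale are compressed, so a small difference there does not show that a gene kept its level. Their log2 differences ran from -0.0035 to 0.09, and for 0 of the 20 did the groups separate. The share of all such low entries whose groups separate was not counted. With no filter on the mean, 0 of these 20 genes passed limma's test (smallest adjusted p = 0.224, for Adamts4). In that fit 245 of all 19536 entries passed. The largest differences were those of Mmp12, the macrophage elastase (0.09), Mmp9, the gelatinase of epithelial wound edges and leukocytes (0.09), and Adamts4, an aggrecanase (0.07). Mmp9 had values of 4.45, 4.53, 4.46 and 4.43 in GRflox and 4.48, 4.56, 4.64 and 4.52 in corneaGRKO. The highest Mmp9 value was again in corneaGRKO replicate 4, and the groups overlapped.

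Mmp8, the neutrophil collagenase, lay between -0.91 and -0.90 in every library. Of 11 neutrophil markers, 3 were tested and 0 called, Mpo and Retnlg were at 0 in all libraries, and Elane, Ngp, Camp, Cxcr2 and S100a8 had means below 5. Ly6g was not matched in the table. The summed level of the 3 tested markers was 9.47 to 10.28 in GRflox and 9.90 to 11.27 in corneaGRKO. Of the macrophage markers, 4 of 10 tested were called higher, against 1.33% of all entries, and all 10 differences were positive. The part of macrophages in the values of Mmp12 was not tested.

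Genes that act with these proteases were counted by lists. In the plasminogen system, whose product plasmin activates several proMMPs, 1 of 9 tested genes rose and 0 fell, where 1.33% of all tested entries were called higher and 0.520% lower. Serpine2, which encodes protease nexin-1, an inhibitor of thrombin and plasminogen activators, had values of 9.05, 9.09, 9.13 and 8.83 in GRflox and 9.68, 9.97, 10.46 and 9.70 in corneaGRKO. All corneaGRKO libraries were above all controls, and the difference was 0.93 (SE 0.152, limma adjusted p = 0.0159). Plat, the tissue plasminogen activator, stood at -0.22 (limma adjusted p = 0.0515), and Serpinb2, a plasminogen activator inhibitor, at 0.42 (0.202).

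Of 10 tested genes of other matrix-degrading enzymes, 1 rose, against the same 1.33% of all entries. Ctss, which encodes cathepsin S, a protease of antigen-presenting cells, had values of 8.98, 8.88, 8.86 and 8.97 in GRflox and 9.31, 9.25, 9.28 and 9.05 in corneaGRKO, a difference of 0.30 (SE 0.0596, limma adjusted p = 0.0379). The lowest corneaGRKO value of Ctss was in replicate 5, still above the controls. The 4 macrophage markers called higher beside it were Ptprc (0.34), Csf1r (0.40), Mrc1 (0.44) and Cx3cr1 (0.26), and the part of macrophages in the Ctss result was not tested. Htra1, a secreted serine protease, and Hpse, heparanase, stood at 0.25 and 0.12 without passing (limma adjusted p = 0.223 and 0.280). In 3 of the 8 fits with a library left out, 0 genes of the lists passed, Serpine2 and Ctss included: those lacking replicate 1 of GRflox, replicate 5 of GRflox and replicate 3 of corneaGRKO.

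In the other 6 lists 0 tested genes passed, where 1.85% of all tested entries were called in either direction. Of 8 ADAM membrane proteases, Adam28 had the smallest adjusted p (difference 0.32, limma adjusted p = 0.0907), followed by Adam15 (-0.11, 0.223) and Adam10 (0.13, 0.246). Of 6 other inhibitors and surface regulators, A2m, a broad protease trap, stood at -0.26 (limma adjusted p = 0.10), Spock2 at -0.16 (0.122) and Reck, a membrane-anchored MMP inhibitor, at 0.25 (0.197). The 4 proprotein convertases, which cut the prodomains of membrane-type MMPs and ADAMTS enzymes, included Pcsk6 at 0.20 (limma adjusted p = 0.137), Furin at -0.03 and Pcsk7 at 0.02.

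Among 7 ADAMTS-like genes, whose products lack the protease domain, Adamtsl1 (-0.09), Adamtsl5 (0.09) and Papln (-0.09) had the smallest adjusted p-values (limma, 0.378 to 0.431). Of 9 tested ADAMTS substrates, the proteoglycan gene Vcan stood at 0.15 (limma adjusted p = 0.116), Vwf at 0.23 (0.151) and Thbs2 at 0.24 (0.186). Of 8 tested AP-1, ETS and cytokine genes known to induce MMP genes, Jun, a subunit of AP-1, had values of 11.62, 11.65, 12.08 and 11.53 in GRflox and 12.06, 12.11, 12.28 and 11.95 in corneaGRKO. Its groups overlapped through GRflox replicate 4, and the difference was 0.38 (SE 0.111, limma adjusted p = 0.121). Its partner Fos stood at -0.22 (limma adjusted p = 0.329) and Tnf at -0.14 (0.199), Il6 was at 0 in every library, and Il1b was below the filter.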

How the data were processed

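RNA sequencing of 8 whole-cornea libraries was analysed from 1 deposited table of log2 normalized values, with 0 value columns beyond those of the 8 libraries. Per the submitters' processing notes, Bowtie2, HTSeq and DESeq2 were used, whose versions are not given. Genome builds mm9 and mm10 are both named by the submitters, and how the authors made the log2 values is not given. Control libraries had a median SD of 0.0144 where means were 2 to 3 and of 0.0674 where they were 10 to 12, so low genes are compressed. Without counts, no counting error can be given. How the authors' counting treated reads shared between similar MMP genes is not known.

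Entries with a mean of at least 5 were fitted with limma 3.58.1 (R 4.3.3); the fit used a trended prior variance and no covariate beside genotype, and two-sided p-values were adjusted by Benjamini-Hochberg over 13269 entries. On simulated data for the comparison of corneaGRKO with GRflox (13269 genes, 200 changed) it called 61.2%, 94.0% and 100% of genes changed by 0.25, 0.5 and 1, and 5.03% of its calls were unchanged genes. The simulated noise was independent between genes, so shifts shared by many genes of a library were not simulated. Since each library pools corneas, the error is that between pools, not between mice. No library was a duplicate: any 2 differed by a median of at least 0.0427.

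The members and lists were chosen with earlier results of these data known. Named genes are Nr3c1, genes past the threshold, the 15 members with the largest differences, the TIMP genes, the 3 largest differences below the filter and 3 genes of each list. The other members and genes named (Mmp10, Mmp2 and Mmp8 among them, with Krt12, Kera, Col5a1, Slc4a11, Muc5ac and the neutrophil genes) were added after their values were seen, to account for every member. A summed level is the log2 of the sum of the linear values of a list's tested genes. Lengths came from GENCODE M21 and upstream sequences from RefSeq (GRCm38.p6), with the 50 bases after the start left out. The alternatives are a replicate block, no filter, a filter at 7, median centring, quantile normalization, library weights, 16 added to the linear values, each library left out, and corneaGRKO replicates 1 and 4 left out together.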

Additional observations from a re-analysis of the deposited data

Results flagged for a closer look

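Mmp12, the macrophage elastase, had a value of 4.95 in corneaGRKO replicate 4, far from the other corneaGRKO libraries, which lay between 4.80 and 4.82. The gap was 0.844 of the group's range, above Dixon's 95% critical value for 4 samples. It was the 1 group past that value among 54 groups of 4 examined. By chance about 1 group in 20 passes it, so 1 in 54 is no more than chance gives. The mean deviations of conjunctiva (1.08), rim stroma (0.91), muscle (0.58), pigment cell (0.57) and macrophage (0.47) markers, and of photoreceptor markers, were also highest in that library. Those of lens (-0.77), epithelium (-0.12) and endothelium (-0.11) markers were lowest there. The part of these tissues and cells in the Mmp12 value was not tested.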

How the results depend on the processing

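Mmp3 stayed higher in corneaGRKO under all 16 alternatives, with log2 differences from 0.75 to 0.92, and passed the limma threshold in 15 of them, failing only when replicate 5 of GRflox was left out (range of limma's adjusted p, 0.00484 to 0.0544). With the replicate number as a block, 663 entries, 2 members (Mmp3 and Timp3, the latter at a limma adjusted p of 0.0320) and 9 genes of the pathway lists passed. Whether same-numbered libraries are paired is not known. The correlations of same-numbered deviations were 0.51, -0.28, 0.26 and 0.06 for replicates 1, 3, 4 and 5, and 4 of the 8 libraries correlated best with their own number. With library weights, estimated from the same libraries, 1980 entries, 8 members (Adamts15, Adamts5, Mmp14, Mmp19, Mmp3 and Timp3 higher, Mmp24 and Mmp28 lower) and 13 list genes passed. With no filter 4 list genes passed. Leaving out 1 library at a time gave 68 to 574 entries against 245, 0 to 2 members against 1 and 0 to 5 list genes against 2. The sign of 4 uncalled differences changed: Adamts18 and Timp1 with quantile normalization (-0.0024 and -0.0090), Adamts1 and Adamts9 with library weights (0.0228 and 0.0386), and with 1 library left out Adamts18 ran from -0.0183 to 0.0882, Timp1 from -0.0057 to 0.0531, Adamts1 from -0.10 to 0.0249 and Adamts9 from -0.0554 to 0.0206. Of 374 member results, 353 kept direction and side of the threshold. The causes were not tested.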
